A study of Mus musculus with 20 samples.

Results

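The 9 genes described are receptors of selective autophagy, members of the ATG8 (LC3 and GABARAP) family and a phagophore protein, Sqstm1, Nbr1, Optn, Gabarap, Gabarapl1, Gabarapl2, Map1lc3a, Map1lc3b and Wipi1, found as all probes that carry one of these symbols in the platform annotation. There were 14 such probes among 45281. They measured 8 of the 9 genes, and no probe was named Optn. The brighter 50% of all probes were tested, which kept 8 of the 14 probes and 6 of the genes, each represented by its brightest kept probe, among 11802 genes in all. Gabarapl2 and Map1lc3a lay among the dimmer 50% of probes with every probe.

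Selective autophagy delivers damaged proteins and organelles to the lysosome. Receptors such as Sqstm1 (p62), Nbr1 and optineurin bind ubiquitin on the cargo with one domain and proteins of the ATG8 family on the forming membrane with another. The mammalian ATG8 family has an LC3 branch, to which Map1lc3a and Map1lc3b belong, and a GABARAP branch, to which Gabarap, Gabarapl1 and Gabarapl2 belong, and both are conjugated to the lipid of the growing membrane. Wipi1 binds phosphoinositides where that membrane starts to form. Autophagy is the other main route of protein breakdown beside the proteasome, and plasma cells, which make large amounts of antibody, are known to depend on both.

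Total RNA of mouse multiple myeloma cells was measured on Illumina bead arrays. The cells were 2 lines, 589bm and 595sp, from mice of an FVBN by BL/6 background that carry both a Bcl-XL and a Myc transgene, so all groups share both transgenes. Each line was grown as a culture sensitive to bortezomib, a drug that blocks the proteasome, and as a resistant culture. For each of the 4 cultures there was 1 array at 0 h and 1 at each of 2, 8, 16 and 24 h in 33 nM bortezomib. The sources used here do not give the promoters of the transgenes, the way in which resistance arose or whether a culture is a single clone. Untreated cells were measured at 0 h only, so drug and time in culture cannot be told apart. In bulk RNA, fewer cells that express a gene and less RNA per cell cannot be told apart either.

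The 589bm resistant 2 h array was left out. On it 0.144% of probes exceeded 2 times the array median, against 13.4% to 20.3% on the other 19 arrays, so the resistant group at 2 h had 1 array. On the 5 arrays titled as 595sp resistant, the labelled sensitivity and time disagree with the titles, and the titles were followed. Of the 19 arrays, 19 had an array of their own culture as the nearest one. Plasma cell markers were measured by 9 of 10 genes, of which 7 lay among the brighter 50%, with Mzb1 at the 99.7th, Xbp1 at the 97.2th and Irf4 at the 88.1th percentile of all probes, while Jchain and Tnfrsf17 lay among the dimmer 50% of probes. Of the 5 B cell markers measured, Cd79b lay at the 98.6th and Vpreb3 at the 98.1th percentile. Cd22 lay at the 82.0th, Ms4a1 at the 65.4th and Pax5 at the 64.5th percentile. The mean of 5 B cell markers was between 9.41 and 9.78 on the log2 scale on the sensitive 0 and 2 h arrays and between 8.54 and 9.16 on the sensitive arrays from 8 h on. In the resistant cultures it was between 8.86 and 9.22 early and between 8.36 and 8.80 late. The mean of 9 plasma cell markers stayed between 8.20 and 8.54 on all 19 arrays. Each single marker ranged more widely than this mean, with Irf4 between 7.88 and 10.21 and Slamf7 between 6.13 and 8.12. The mean of 7 T cell markers, of which Cd3d, Cd4 and Cd8a lay among the dimmer 50% of probes, was also lower late, with 7.61 to 7.68 early and 7.11 to 7.38 late in 589bm sensitive and 6.90 to 6.91 early and 6.70 to 6.78 late in 595sp sensitive. The mean of 4 erythroid markers was between 7.05 and 7.98 early and between 6.51 and 6.73 late in 589bm sensitive, while in 595sp sensitive it was between 6.84 and 7.08 early and between 6.85 and 7.22 late. In the resistant cultures it overlapped between early and late arrays in 595sp (6.51 to 6.77 and 6.395 to 6.78), and in 589bm it was 6.43 early and between 6.42 and 6.69 late. The part of these markers in the results was not tested.

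Sqstm1 and Gabarapl1 rose in the sensitive and in the resistant cultures from 8 h on. Their promoters are shown because the results turn on these genes, and that of Gabarap, a bright member that did not pass, is set beside them. The 250 bases upstream of the RefSeq start in GRCm38.p6 are given 5′ to 3′ on the strand of the gene, with the GC box GGGCGG, on either strand, in capitals. They lie at chr11:50210821-50211070 on the minus strand for Sqstm1, at chr6:129532942-129533191 on the plus strand for Gabarapl1 and at chr11:69991120-69991369 on the plus strand for Gabarap.
Sqstm1: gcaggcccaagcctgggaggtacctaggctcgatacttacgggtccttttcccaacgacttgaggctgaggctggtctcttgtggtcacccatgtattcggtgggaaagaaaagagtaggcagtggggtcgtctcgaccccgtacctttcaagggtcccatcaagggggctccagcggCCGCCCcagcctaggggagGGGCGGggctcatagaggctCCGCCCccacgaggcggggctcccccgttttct
Gabarapl1: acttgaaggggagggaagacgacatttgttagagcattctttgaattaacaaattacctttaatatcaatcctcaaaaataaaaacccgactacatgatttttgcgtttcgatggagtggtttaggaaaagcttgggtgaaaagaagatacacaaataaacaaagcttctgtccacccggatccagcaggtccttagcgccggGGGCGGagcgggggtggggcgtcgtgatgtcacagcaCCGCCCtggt
Gabarap: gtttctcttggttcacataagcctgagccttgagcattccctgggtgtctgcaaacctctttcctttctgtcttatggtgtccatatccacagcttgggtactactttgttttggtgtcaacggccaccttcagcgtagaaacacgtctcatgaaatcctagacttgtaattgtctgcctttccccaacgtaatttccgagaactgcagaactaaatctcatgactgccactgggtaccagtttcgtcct
The Sqstm1 window held 3 GC boxes, which start at -72, -53 and -33 from the gene start, the Gabarapl1 window held 2, and the Gabarap window held none. Members that did not pass or were not tested held it as well, with 9 in the Wipi1 window, 2 each for Gabarapl2 and Optn and 1 for Map1lc3b. Nbr1 had 2 windows, of which 1 held 1 box, at 30 bases after the gene start, and the other held none. The part of the box in the rises was not tested. A GC box was present in 35.7% of 32851 RefSeq windows of the same 300 bases, and this motif was added after the sequences had been seen. The antioxidant response element TGACNNNGC, the ATF4 and CHOP composite element TGATGNAA, the heat shock element core GAANNTTC, the CRE TGACGTCA and the CLEAR element TCACGTGA bound by TFEB were searched on both strands. These letters were found in 12.4%, 3.97%, 7.86%, 1.79% and 0.974% of all windows in that order. None of these 5 was found in the windows of Sqstm1, Gabarapl1 or Gabarap. Most windows of all genes lack each of them, and sequence beyond the 300 bases was not searched. So no conclusion is drawn from this absence. Windows were available for 8 of the 9 genes, and of the others Optn held GAANNTTC and Map1lc3b held TGACNNNGC, both within the 50 bases after the start.

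Sqstm1 encodes the ubiquitin receptor p62, which also binds Keap1 and is itself broken down by autophagy. Its probe was at the 98.8th percentile of all probes. In the 589bm sensitive culture its normalized log2 signal was 10.41 at 0 h, 10.90 at 2 h, 12.75 at 8 h, 13.58 at 16 h and 13.67 at 24 h. In the 595sp sensitive culture it was 10.77, 10.91, 12.62, 13.10 and 13.70 at the same times. Both sensitive cultures were low at 0 and 2 h and high from 8 h on, with no overlap between these times. The 589bm resistant culture gave 11.40 at 0 h, 12.78 at 8 h, 13.51 at 16 h and 13.18 at 24 h. The 595sp resistant culture gave 10.9997, 11.08, 11.89, 12.48 and 13.00 at 0, 2, 8, 16 and 24 h. Here too every array from 8 h on was above the early arrays of its culture, and the 595sp resistant culture was the lowest of the 4 at each of 8, 16 and 24 h.

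Against 0 h, Sqstm1 rose in the sensitive cultures by a log2 of 2.09 at 8 h (adjusted p = 3.01e-05 by limma over all probes tested), 2.75 at 16 h (adjusted p = 1.16e-06) and 3.10 at 24 h (adjusted p = 2.24e-07), each with an SE of 0.21 and n = 2 cultures. These are 4.27-fold, 6.71-fold and 8.57-fold. By 24 h it had risen by 3.27 in 589bm and 2.93 in 595sp. In the resistant cultures Sqstm1 rose by 1.14 at 8 h (adjusted p = 0.0339), 1.79 at 16 h (adjusted p = 0.00134) and 1.89 at 24 h (adjusted p = 0.000409), again with an SE of 0.21, or by 2.20-fold, 3.46-fold and 3.70-fold. Ranked from the largest rise among 11802 genes, Sqstm1 was at place 16, 10 and 8 in the sensitive cultures and at place 20, 6 and 8 in the resistant cultures at 8, 16 and 24 h. At 2 h the sensitive cultures gave a change of 0.32 (SE 0.21, adjusted p = 1), which did not pass.

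**Figure D1:**
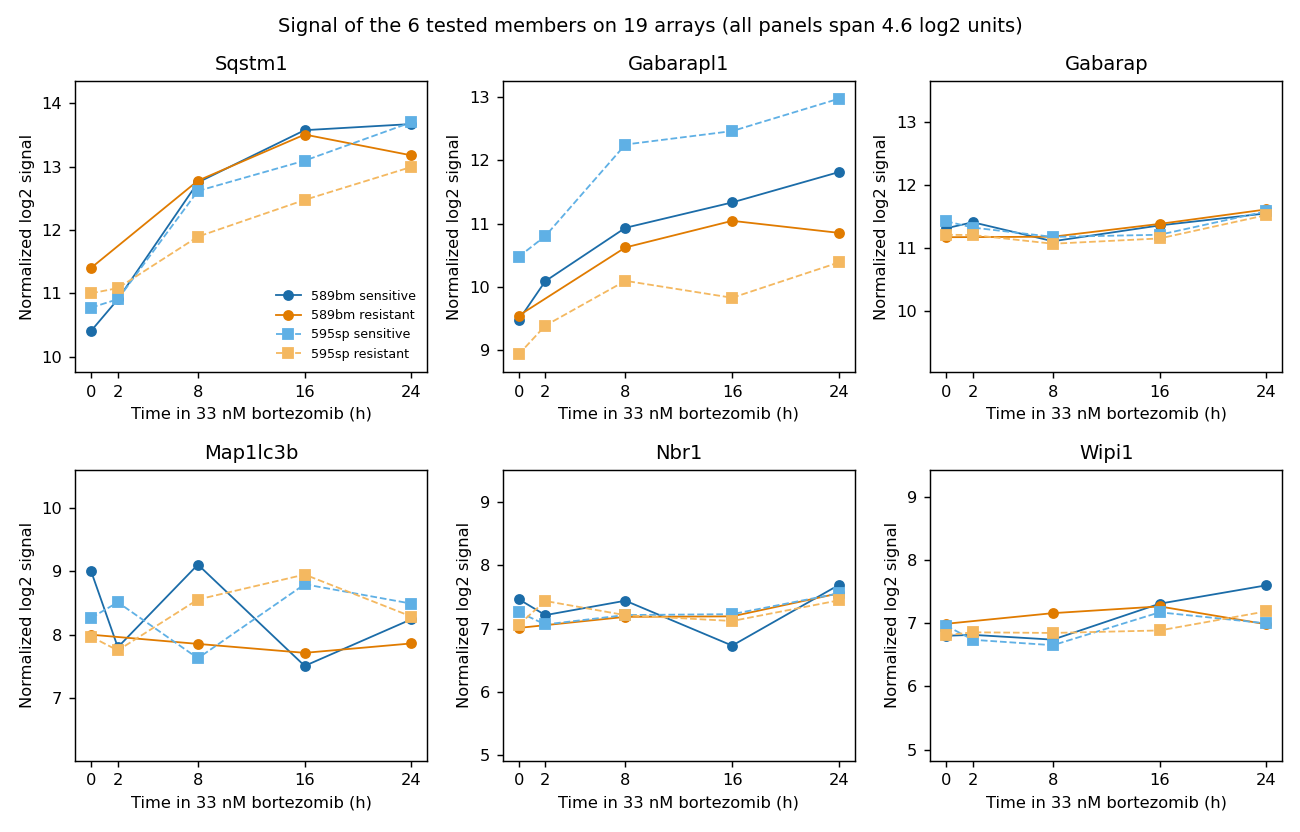
Normalized log2 signal of the 6 tested members (y axis, 1 panel a gene, each spanning the same number of log2 units) against hours in bortezomib (x axis), with 1 point for each of the 19 arrays and a line for each culture. Sqstm1 and Gabarapl1 climb in all 4 cultures, with Sqstm1 ending between 13.00 and 13.70 at 24 h, while Gabarap stays between 11.07 and 11.61.

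Gabarapl1, a GABARAP-branch ATG8 protein, was the other member that rose. Its signal in the 589bm sensitive culture was 9.47 at 0 h, 10.09 at 2 h, 10.94 at 8 h, 11.34 at 16 h and 11.82 at 24 h, and in the 595sp sensitive culture it was 10.48, 10.81, 12.25, 12.46 and 12.98. The 589bm resistant culture gave 9.55 at 0 h, 10.63 at 8 h, 11.05 at 16 h and 10.86 at 24 h, and the 595sp resistant culture gave 8.93, 9.39, 10.10, 9.83 and 10.39 at 0, 2, 8, 16 and 24 h. In each culture the arrays from 8 h on lay above those at 0 and 2 h. Gabarapl1 had the widest range of the 8 measured members over the 19 arrays, 4.04 log2 units, next to 3.30 for Sqstm1 and a median range of 0.97 over all kept probes. Its range runs from 8.93 in 595sp resistant at 0 h to 12.98 in 595sp sensitive at 24 h. So it spans the level of different cultures as well as the rise.

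Against 0 h, Gabarapl1 rose in the sensitive cultures by 1.62 at 8 h (3.07-fold, adjusted p = 0.000224), 1.92 at 16 h (3.80-fold, adjusted p = 1.68e-05) and 2.42 at 24 h (5.35-fold, adjusted p = 1.02e-06 by limma), with an SE of 0.19 and n = 2 cultures. The 24 h change was 2.34 in 589bm and 2.50 in 595sp. In the resistant cultures it rose by 1.12 at 8 h (2.17-fold, adjusted p = 0.027), 1.20 at 16 h (2.29-fold, adjusted p = 0.0066) and 1.38 at 24 h (2.61-fold, adjusted p = 0.00232). It ranked between place 20 and place 42 of 11802 genes in these 6 comparisons. The sensitive change at 2 h was 0.47 (SE 0.19), which had an unadjusted p of 0.0265 and an adjusted p of 1.

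At 2 h the sensitive cultures had 0 of 6 members past the threshold, as they had 0% of all genes. Of the 6 members tested, 2 passed as higher and 0 as lower in the sensitive cultures at 8, 16 and 24 h. Of all genes tested 1.53%, 5.82% and 8.24% passed as higher and 1.03%, 4.74% and 6.24% as lower at these times. The resistant cultures also had 2 of 6 as higher and 0 as lower at each time, where 0.127%, 0.635% and 0.864% of all genes passed as higher and 0.0763%, 0.695% and 0.551% as lower. The median change over the 6 members was -0.11, 0.14 and 0.34 in the sensitive cultures and 0.19, 0.26 and 0.42 in the resistant ones at 8, 16 and 24 h, while the median over all genes tested lay between -0.01 and 0.02. At 2 h limma called 0 of 22641 probes and 594 had an unadjusted p under 0.05. These p-values take the 2 lines as replicates of a condition and rest on 1 array of each culture at 0 h.

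The rises of both genes in the sensitive cultures passed in every one of 19 fits that each left out 1 array. Those in the resistant cultures rested on single arrays more often. At 8 h the Sqstm1 rise did not pass without the 589bm resistant 0 h array (0.99, adjusted p = 0.442), the 589bm resistant 8 h array (0.97, adjusted p = 0.823), the 595sp resistant 0 h array (1.29, adjusted p = 0.179) or the 595sp resistant 8 h array (1.31, adjusted p = 0.271), and it also missed without the 24 h sensitive array of 589bm (adjusted p = 0.0544) or of 595sp (adjusted p = 0.0556). At 16 h it missed without the 589bm resistant 16 h array (1.52, adjusted p = 0.0502), and at 24 h it passed in 19 of 19 fits, with values from 1.59 to 2.19. The Gabarapl1 rise at 8 h missed without any of the same 4 resistant 0 h and 8 h arrays (adjusted p from 0.184 to 0.473). At 16 h it missed without the 589bm 0 h (adjusted p = 0.131), 589bm 16 h (adjusted p = 0.145) or 595sp 0 h (adjusted p = 0.0677) resistant array, and at 24 h without the 589bm 0 h (adjusted p = 0.0684) or 595sp 24 h (adjusted p = 0.0898) resistant array. The lowest of these resistant changes in any of the 19 fits was 0.86, for Gabarapl1 at 16 h. Median scaling of the arrays ended the calls of Sqstm1 at 8 h (1.26, adjusted p = 0.276) and of Gabarapl1 at 8 h (1.25, adjusted p = 0.276), 16 h (1.26, adjusted p = 0.101) and 24 h (1.40, adjusted p = 0.0518), and without the 5 arrays of 595sp resistant none of the resistant calls remained, with Sqstm1 at 1.78 and Gabarapl1 at 1.30 at 24 h in 589bm.

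**Figure D2:**
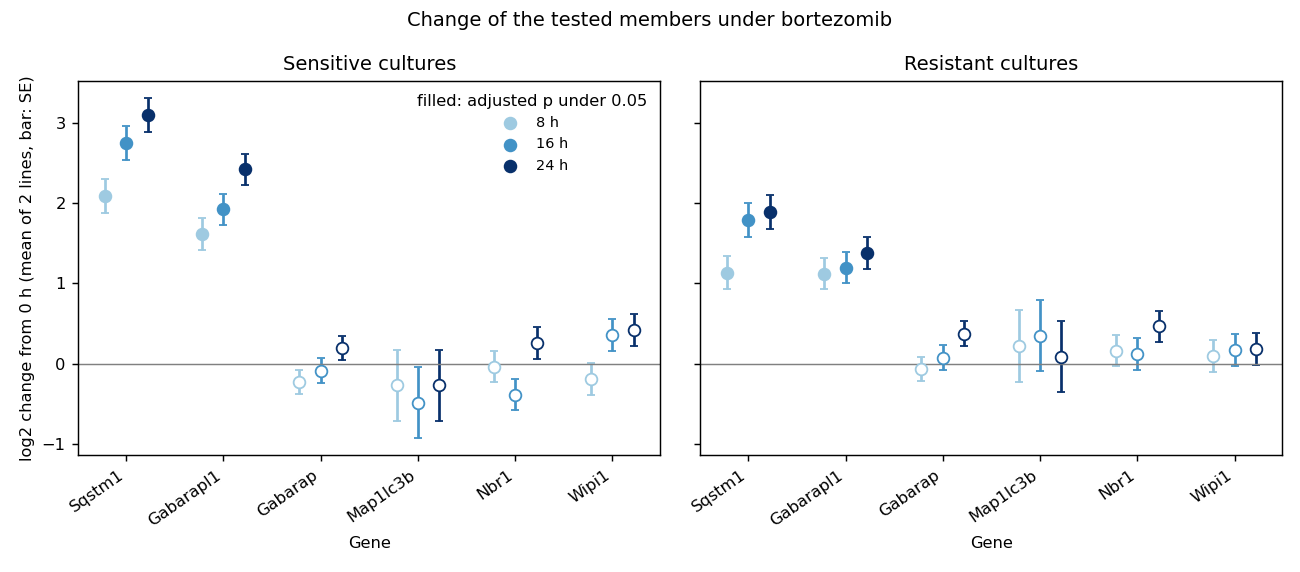
Log2 change from 0 h (y axis) of the 6 tested members (x axis) at 8, 16 and 24 h in the sensitive (left) and resistant (right) cultures, as the fitted mean of 2 lines with its SE as the bar and filled points for an adjusted p under 0.05. Sqstm1 and Gabarapl1 have filled points at all 3 times in both panels, with 3.10 and 2.42 at 24 h on the left and 1.89 and 1.38 on the right, and the other 4 genes have open points.

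The resistant rises of Sqstm1 and Gabarapl1 were smaller than the sensitive ones, but the difference did not pass the test. For Sqstm1 the resistant change minus the sensitive change was -0.96 at 8 h (SE 0.30, adjusted p = 0.891), -0.96 at 16 h (SE 0.30, adjusted p = 0.477) and -1.21 at 24 h (SE 0.30, adjusted p = 0.164 by limma, with a 95% interval from -1.84 to -0.58 and an unadjusted p of 0.0008). For Gabarapl1 it was -0.50 (adjusted p = 0.91), -0.73 (adjusted p = 0.526) and -1.04 (adjusted p = 0.203, with an interval from -1.62 to -0.46 and an unadjusted p of 0.00151), with an SE of 0.28. In this comparison 0%, 0.0424% and 0.0508% of all genes passed in either direction at 8, 16 and 24 h, so 0 of 6 members is near that background. At 8 h limma called 0 probes, and 1229 had an unadjusted p under 0.05. The starting signal of Sqstm1, at 0 h, was 11.40 in the 589bm resistant and 10.41 in the 589bm sensitive culture. In 595sp it was 10.9997 in the resistant and 10.77 in the sensitive culture. The Sqstm1 rise by 24 h was 1.78 in the resistant and 3.27 in the sensitive culture of 589bm. In 595sp the rise was 1.997 in the resistant and 2.93 in the sensitive culture. The part of the starting signal in these rises was not tested. Median scaling of the arrays in place of quantile normalization moved the median of all kept probes in the difference at 24 h by 0.12 and gave -0.87 for Sqstm1 and -0.60 for Gabarapl1.

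Each culture was then compared with itself, as the mean of its 8, 16 and 24 h arrays minus the mean of its 0 and 2 h arrays, with p-values that measure the spread over the times of a single culture. Sqstm1 rose by 2.68 in 589bm sensitive (SE 0.31, adjusted p = 1.21e-05), by 2.30 in 595sp sensitive (SE 0.31, adjusted p = 9.52e-05) and by 1.42 in 595sp resistant (SE 0.31, adjusted p = 0.0223). In 589bm resistant, where the early mean was the 0 h array alone, the value was 1.75 (SE 0.39, adjusted p = 0.0591), which did not pass. Gabarapl1 rose by 1.58 in 589bm sensitive (SE 0.26, adjusted p = 0.000405) and by 1.92 in 595sp sensitive (SE 0.26, adjusted p = 8.22e-05). Its values in the resistant cultures were 1.30 in 589bm (SE 0.32, adjusted p = 0.1) and 0.94 in 595sp (SE 0.26, adjusted p = 0.0699), and neither passed.

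In these late against early comparisons 2 of 6 members passed as higher in each sensitive culture, against 5.09% of all genes in 589bm and 5.21% in 595sp, and 1 of 6 passed in 595sp resistant and 0 of 6 in 589bm resistant, against 0.686% and 0.288%. The call of Sqstm1 in 595sp resistant was lost without its 0 h (1.38, adjusted p = 0.25), 2 h (1.46, adjusted p = 0.211), 16 h (1.41, adjusted p = 0.1) or 24 h array (1.15, adjusted p = 0.0751). In 589bm resistant, Sqstm1 passed in 6 of 19 such fits, those without the 8 h array of any of the 4 cultures or without the 24 h array of either 595sp culture (adjusted p from 0.0188 to 0.0446). Gabarapl1 in 595sp resistant passed without the 589bm sensitive 8 h (adjusted p = 0.0362) or 24 h array (adjusted p = 0.0484). The lines did not differ beyond this spread in the size of the Sqstm1 change, with 589bm minus 595sp at 0.38 in the sensitive (SE 0.44, interval from -0.53 to 1.30) and 0.34 in the resistant cultures (SE 0.50, interval from -0.71 to 1.38). For Gabarapl1 it was -0.34 (SE 0.36, interval from -1.10 to 0.41) and 0.35 (SE 0.41, interval from -0.51 to 1.21). The resistant change minus the sensitive change of Gabarapl1 was -0.98 in 595sp (SE 0.36, adjusted p = 0.351) and -0.28 in 589bm (SE 0.41, adjusted p = 0.907).

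**Figure D3:**
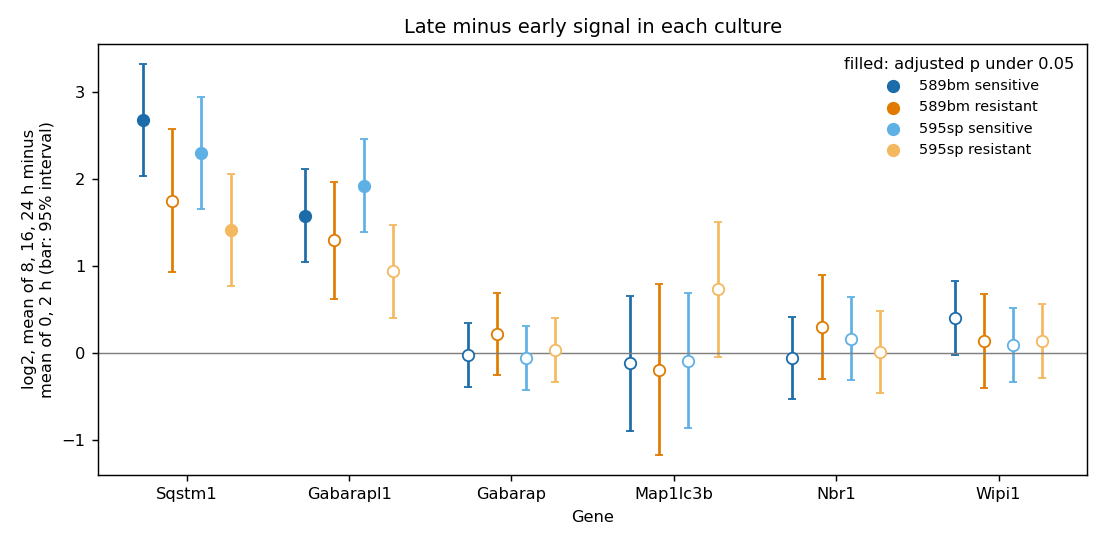
Mean log2 signal at 8, 16 and 24 h minus the mean at 0 and 2 h (y axis, bar for the 95% interval) of the 6 tested members (x axis) in each culture, with 0 h alone as the early value of 589bm resistant and filled points for an adjusted p under 0.05. Sqstm1 lies between 1.42 and 2.68 and Gabarapl1 between 0.94 and 1.92 in the 4 cultures, and the intervals of the other 4 genes reach 0.

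The level of Gabarapl1 before the late response differed between the 595sp cultures. At 0 and 2 h it was 8.93 and 9.39 in the resistant and 10.48 and 10.81 in the sensitive culture, a difference of -1.48 (SE 0.28, adjusted p = 0.0012 by limma, interval from -2.06 to -0.89). This was the 1 of 6 members that passed as lower, next to 5.70% of all genes, and it passed in 19 of 19 fits without 1 array. The 595sp resistant signal at 24 h, 10.39, was still below the 595sp sensitive signal at 0 h. In 589bm the early difference was -0.24 (SE 0.34, adjusted p = 0.751), with 9.55 at 0 h in the resistant and 9.47 and 10.09 in the sensitive culture. On the early 595sp arrays the mean of 6 macrophage markers lay between 6.59 and 6.62 in the resistant and between 7.21 and 7.43 in the sensitive culture, with Lyz2, Adgre1 and Itgam among the dimmer 50% of all probes and Csf1r, Mpeg1 and Cd14 among the brighter 50%. The mean of 4 erythroid markers lay between 6.51 and 6.77 in the resistant and between 6.84 and 7.08 in the sensitive culture. On the same arrays the mean of 5 B cell markers lay between 9.18 and 9.22 in the resistant and between 9.69 and 9.78 in the sensitive culture, and that of 7 T cell markers between 7.16 and 7.18 and between 6.90 and 6.91. The part of these markers in the Gabarapl1 difference was not tested. Sqstm1 at the same times differed by 0.20 in 595sp (SE 0.34, adjusted p = 0.816) and by 0.75 in 589bm (SE 0.42, adjusted p = 0.323).

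Gabarap, the founding member of the GABARAP branch, had a probe at the 97.4th percentile and varied little. Its signal in the sensitive cultures was 11.31, 11.41, 11.11, 11.36 and 11.55 in 589bm and 11.43, 11.33, 11.18, 11.21 and 11.58 in 595sp at 0, 2, 8, 16 and 24 h. The resistant signals were 11.17, 11.18, 11.38 and 11.61 in 589bm at 0, 8, 16 and 24 h and 11.21, 11.21, 11.07, 11.15 and 11.52 in 595sp. The highest array of each culture was the one at 24 h, while those at 8 and 16 h lay above, below or among the early arrays, depending on the culture. The change at 24 h was 0.20 in the sensitive (SE 0.15, adjusted p = 0.474) and 0.38 in the resistant cultures (SE 0.15, adjusted p = 0.298), and no comparison of Gabarap passed. Its range over the 19 arrays was 0.54, below the median range of 0.97 of all kept probes.

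Map1lc3b encodes LC3B, whose lipid-bound form is the usual marker of autophagosomes. Its signal in 589bm sensitive was 9.002, 7.80, 9.11, 7.51 and 8.24 at 0, 2, 8, 16 and 24 h, and in 595sp sensitive it was 8.27, 8.51, 7.63, 8.80 and 8.49. The resistant cultures gave 8.00, 7.85, 7.71 and 7.86 in 589bm at 0, 8, 16 and 24 h and 7.97, 7.75, 8.56, 8.95 and 8.29 in 595sp. Signals at neighbouring times went up and down, and the 2 sensitive cultures moved in opposite directions at 2, 8, 16 and 24 h. The change at 24 h was -0.27 in the sensitive (SE 0.44, interval from -1.20 to 0.67) and 0.09 in the resistant cultures (SE 0.44, interval from -0.84 to 1.02). The lowest p of this gene came from 595sp resistant, where late minus early was 0.74 (SE 0.37, adjusted p = 0.399). With an SE more than 2 times that of Sqstm1, a change of the size of the Gabarapl1 rise at 24 h in the sensitive cultures lay outside the interval of Map1lc3b, while changes near 0.67 lay within it.

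Nbr1, a ubiquitin receptor related in domains to Sqstm1, was measured by 2 kept probes at the 75.9th and 71.7th percentile. The brighter probe gave 7.46, 7.21, 7.44, 6.73 and 7.69 in 589bm sensitive and 7.26, 7.06, 7.21, 7.23 and 7.56 in 595sp sensitive. It gave 7.01, 7.18, 7.19 and 7.56 in 589bm resistant and 7.06, 7.44, 7.21, 7.12 and 7.45 in 595sp resistant, in the order of the times. All 4 cultures were highest at 24 h, but by unlike courses. The 589bm sensitive culture went from 6.73 at 16 h to 7.69 at 24 h, while 595sp resistant had 7.44 at 2 h and 7.45 at 24 h. The change at 24 h was 0.26 in the sensitive (SE 0.20, adjusted p = 0.461) and 0.47 in the resistant cultures (SE 0.20, unadjusted p = 0.029, adjusted p = 0.318). The second probe gave 0.40 (SE 0.23, adjusted p = 0.292) and 0.28 (SE 0.23, adjusted p = 0.691). At 16 h in the sensitive cultures the probes pointed in opposite directions, with -0.38 from the brighter and 0.35 from the dimmer, and so they did at 8 h in the resistant cultures, with 0.16 and -0.39. Without the 595sp sensitive 16 h array the brighter probe passed as lower at 16 h in the sensitive cultures (-0.72, adjusted p = 0.0338), on the 589bm array alone.

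Wipi1 had 2 kept probes, at the 72.1th and 55.4th percentile, and 1 more among the dimmer 50% of probes. The brightest gave 6.80, 6.81, 6.74, 7.31 and 7.60 in 589bm sensitive and 6.96, 6.74, 6.65, 7.17 and 6.996 in 595sp sensitive. In the resistant cultures it gave 6.99, 7.16, 7.26 and 6.98 in 589bm and 6.81, 6.85, 6.84, 6.88 and 7.19 in 595sp. The largest step was in 589bm sensitive, where the 16 and 24 h arrays lay above the other 3. The sensitive change at 24 h was 0.42 (SE 0.20, unadjusted p = 0.0499, adjusted p = 0.201), made up of 0.80 in 589bm and 0.04 in 595sp, and the resistant change was 0.18 (SE 0.20, adjusted p = 0.79). The second kept probe gave 0.17 (SE 0.16) and 0.29 (SE 0.16) in the same comparisons. In 589bm sensitive late minus early was 0.41 by the first probe and -0.28 by the second, so the probes disagreed in sign. Without the 589bm sensitive 8 h array the first probe passed there (0.64, adjusted p = 0.0259).

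The LC3 gene Map1lc3a and the GABARAP-branch gene Gabarapl2 had 5 probes, all among the dimmer 50% of probes, between the 5.0th and 46.1th percentile. Their signals stayed between 5.70 and 7.28, around the median of all values, 6.51, and the brighter probe of Map1lc3a was highest in 595sp resistant at 24 h. That probe gave 6.45, 6.85, 6.87, 6.85 and 7.28 in 595sp resistant and 5.88, 6.45, 6.29, 6.44 and 6.75 in 595sp sensitive. In 589bm its change by 24 h was 0.05 in the resistant and -0.19 in the sensitive culture. The other Map1lc3a probe changed by -0.007 in 595sp resistant and -0.11 in 595sp sensitive by 24 h. In 589bm it changed by 0.78 in the resistant and -0.08 in the sensitive culture. In a fit of all probes with no filter, the 6 dim probes of Map1lc3a, Gabarapl2 and Wipi1 gave 120 tests over 20 comparisons by limma. None passed, 15 had an unadjusted p under 0.05, and the lowest adjusted p was 0.0504, for the dimmest Gabarapl2 probe in the sensitive cultures at 24 h (0.57, SE 0.17). The other Gabarapl2 probes did not move with it, and at 24 h in the resistant cultures they gave 0.39 and -0.41. On a log2 scale after background correction with an added offset, any true difference of such dim probes would be understated. Without detection p-values their signal cannot be told from background.

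**Figure D4:**
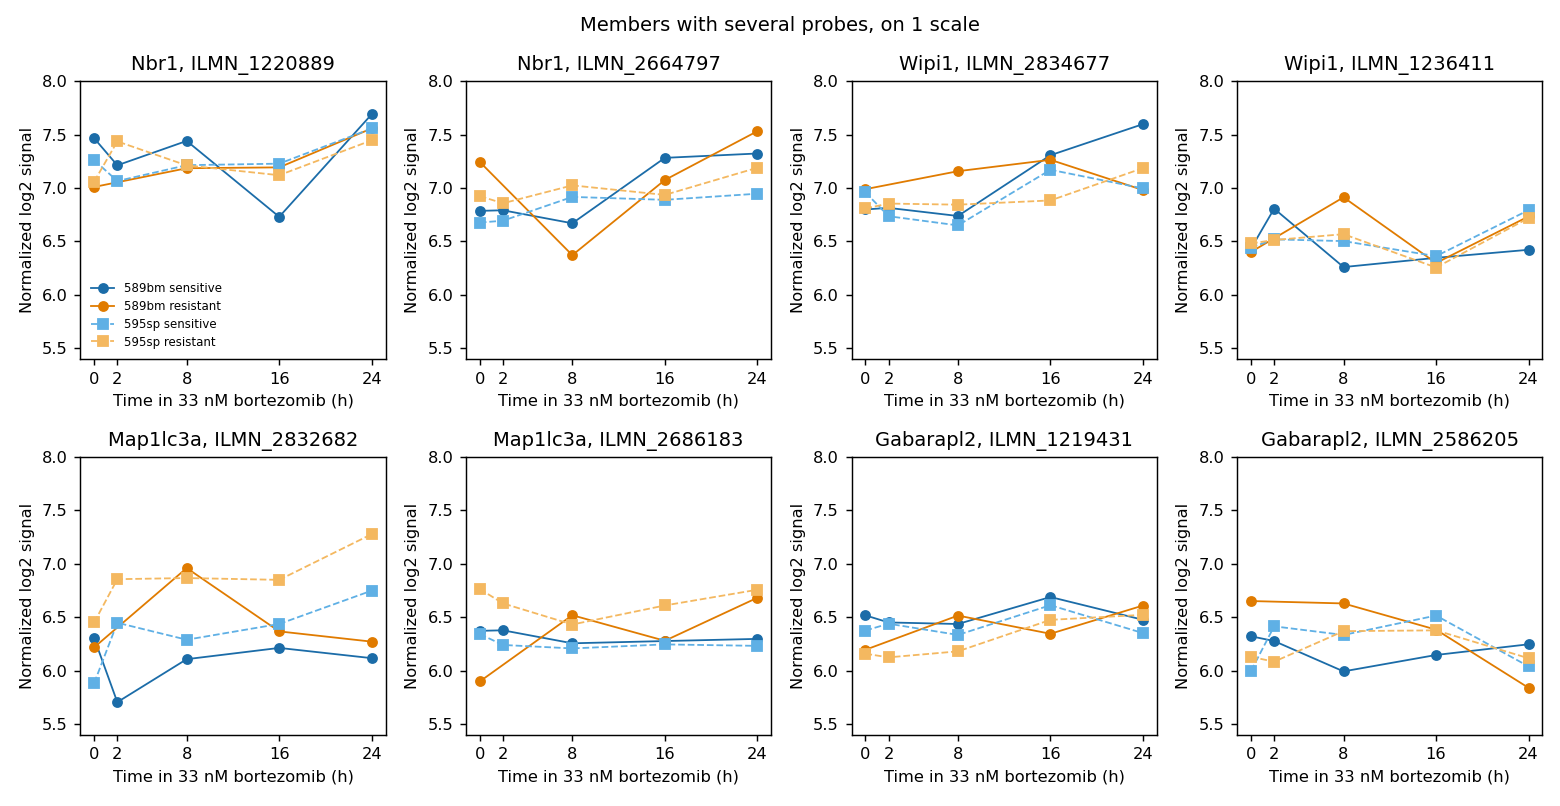
Normalized log2 signal (y axis, the same scale in each panel) against hours in bortezomib (x axis) for 2 probes each of Nbr1, Wipi1, Map1lc3a and Gabarapl2, with 1 point for each array and a line for each culture. Probes of one gene follow different courses, as for Nbr1 in 589bm sensitive at 16 h, where the panels show 6.73 and 7.28.

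The remaining autophagy machinery was described through 6 lists with 110 tested genes, chosen with earlier results of these data known. In the sensitive cultures 3, 12 and 23 of the 110 passed as higher and 1, 4 and 3 as lower at 8, 16 and 24 h, beside 1.53%, 5.82% and 8.24% of all genes that passed as higher and 1.03%, 4.74% and 6.24% as lower. The resistant cultures had 0, 1 and 2 that passed as higher and 0, 1 and 1 as lower, beside shares over all genes of 0.127%, 0.635% and 0.864% as higher and 0.0763%, 0.695% and 0.551% as lower. In the difference between the responses 0 of 110 passed at any of the 3 times. Of all genes 0%, 0.0424% and 0.0508% passed there in either direction, so this count is near that background. The median change over the 110 genes is given by list for 24 h, where the median over all genes was 0.02 in the sensitive and 0.01 in the resistant cultures.

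Of 20 tested genes that start the phagophore, 7 passed as higher and 0 as lower in the sensitive cultures at 24 h, with a median of 0.45. Over all genes 8.24% passed as higher and 6.24% as lower. Wdr45, which encodes the Wipi1 relative WIPI4, rose by 1.18 (SE 0.21, adjusted p = 0.00165), and its relatives Wipi2 and Wdr45b, named after their values were seen, rose by 0.71 (adjusted p = 0.035) and 0.63 (adjusted p = 0.0373). Ulk1, the kinase that starts autophagy, rose by 1.08 (SE 0.22, adjusted p = 0.0034), Atg101, a subunit of its complex, by 1.07 (SE 0.18, adjusted p = 0.00106) and Vmp1, a membrane protein of the endoplasmic reticulum needed for phagophore growth, by 0.78 (SE 0.17, adjusted p = 0.00484). The other was Nrbf2, a subunit of the autophagy lipid kinase complex, at 0.73 (adjusted p = 0.0168), also named after its value was seen. Of the 20, 0 passed at 24 h in the resistant cultures. There 0.864% of all genes passed as higher and 0.551% as lower, so this count is near that background. The median of the 20 was 0.13, with 0.56 for Wdr45, 0.19 for Ulk1 and 0.72 for Atg101.

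Of the 11 tested genes that conjugate ATG8 proteins to lipid, 4 passed as higher in the sensitive cultures at 24 h and 0 as lower, with a median of 0.15. The shares over all genes were 8.24% as higher and 6.24% as lower. Atg12, the ubiquitin-like protein of the conjugation complex, rose by 0.92 at 8 h (adjusted p = 0.0302), 1.06 at 16 h and 1.04 at 24 h (SE 0.21, adjusted p = 0.00364). Its partners in that complex, Atg16l2 and Atg16l1, rose at 24 h by 1.21 (SE 0.20, adjusted p = 0.00095) and 0.75 (SE 0.19, adjusted p = 0.0128). Tecpr1, which binds the complex and is also in the list of fusion genes, rose by 0.80 (SE 0.21, adjusted p = 0.0185). The resistant values at 24 h were 0.62 for Atg12, 0.56 for Atg16l2 and -0.19 for Atg16l1. There 0 of 11 passed, near the 0.864% of all genes that passed as higher and 0.551% as lower.

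Among 14 other receptors 2 passed as higher and 1 as lower in the sensitive cultures at 24 h, with a median of 0.07. Over all genes 8.24% passed as higher and 6.24% as lower, so these counts are near that background. Tax1bp1, a ubiquitin receptor that works beside Sqstm1 and Nbr1, rose by 1.11 (SE 0.23, adjusted p = 0.0045), and Rtn3, a receptor for the endoplasmic reticulum, by 0.71 (SE 0.18, adjusted p = 0.0179). Phb2, a receptor of the inner mitochondrial membrane, fell by 0.62 (SE 0.15, adjusted p = 0.0142). Tax1bp1 rose in the resistant cultures too, by 1.16 at 16 h (SE 0.23, adjusted p = 0.0199) and its value at 24 h was 0.89 (adjusted p = 0.0754).

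Of 15 fusion genes 3 passed as higher in the sensitive cultures at 24 h, beside 8.24% of all genes, with a median of 0.19. Besides Tecpr1 these were Vps11, a core subunit of the tethering complexes of the late endosome, at 0.72 (SE 0.21, adjusted p = 0.0315) and Ykt6, a SNARE of autophagosomes, at 0.69 (SE 0.21, adjusted p = 0.04). Of 29 lysosome genes 4 passed as higher and 2 as lower, with a median of 0.03, where 8.24% of all genes passed as higher and 6.24% as lower, so the count of lower genes is near that background. The tetraspanin Cd63 rose by 1.51 (SE 0.23, adjusted p = 0.000466), the proton pump subunit Atp6v1h by 1.31 (SE 0.22, adjusted p = 0.000971) and the glycogen-degrading enzyme Gaa by 1.02 (SE 0.19, adjusted p = 0.00173). The glucuronidase Gusb fell by 1.45 (SE 0.18, adjusted p = 0.0001). Cd63 and Gusb also passed in the resistant cultures at 24 h, at 1.49 (SE 0.23, adjusted p = 0.00388) and -1.21 (SE 0.18, adjusted p = 0.00375).

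Of 22 regulators 4 passed as higher and 0 as lower in the sensitive cultures at 24 h, with a median of 0.34. The shares over all genes were 8.24% as higher and 6.24% as lower. Sesn2, a stress-induced inhibitor of mTORC1 that binds Sqstm1, rose by 1.45 at 8 h (adjusted p = 0.0156) and by 1.497 at 24 h (SE 0.30, adjusted p = 0.00338). Tbk1, the kinase that phosphorylates Sqstm1 and optineurin, rose by 0.99 (SE 0.17, adjusted p = 0.000962), Mtmr3, a phosphoinositide phosphatase, by 0.83 (SE 0.22, adjusted p = 0.0216) and Fnip1, a partner of folliculin, by 0.74 (SE 0.16, adjusted p = 0.00681). Rragd, a Rag GTPase of the mTORC1 pathway named after its value was seen, rose by 0.92 at 24 h in the resistant cultures (adjusted p = 0.0252), and Sesn2 was at 1.16 (SE 0.30, adjusted p = 0.0753).

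**Figure D5:**
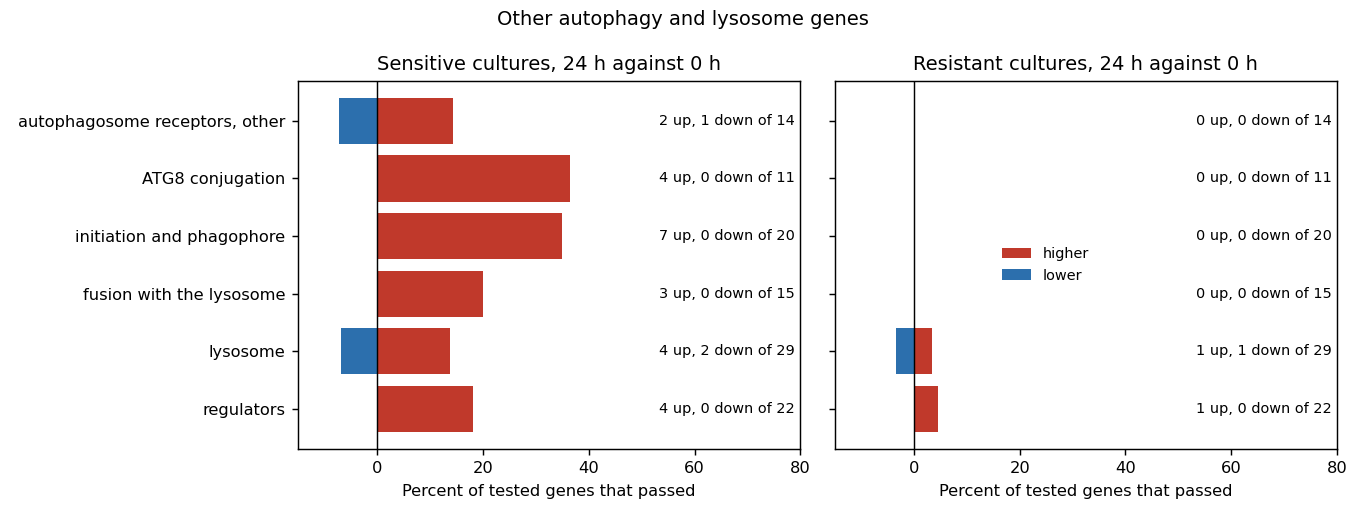
Percent of the tested genes of 6 autophagy and lysosome lists (y axis) that passed at 24 h as higher (right of 0 on the x axis) or lower (left of 0) in the sensitive (left panel) and resistant (right panel) cultures, with the counts printed in each panel. The initiation list has 7 of 20 genes higher in the sensitive and 0 of 20 in the resistant cultures, beside 8.24% and 0.864% of all genes. The difference between the panels was not called for any gene of the lists, beside 0.0508% of all genes.

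The genes whose signal ran most like that of Sqstm1 over the 19 arrays were Rnf181, a ubiquitin ligase (Pearson r 0.966), Pdlim7, a scaffold protein of the cytoskeleton (0.953), Rit1, a small GTPase (0.948), Ccdc130 (0.942) and Mocs1, an enzyme of molybdenum cofactor synthesis (0.942). Those most like Gabarapl1 were Ctnna1, the alpha-catenin of adherens junctions (0.940), Gak, a kinase of clathrin uncoating (0.934), Mlkl, the effector of necroptosis (0.925), Tbcb, a tubulin folding cofactor (0.924), and Taldo1, an enzyme of the pentose phosphate pathway (0.922). The arrays share 4 cultures and a common time course, so these values describe likeness over the arrays only. The lists of the 5 nearest genes had no gene in common.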

How the data were processed

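The deposited non-normalized table gives intensity (AVG_Signal, linear 1-colour brightness) of 45281 probes on 20 arrays, per the file headers, without detection p-values. The deposited series matrix gives intensity that the authors had quantile-normalized, seen from columns with the same sorted values, and served as an alternative. The sources used here do not give the software or background handling. RNA was column-purified and biotin-labelled, per the labels' protocols.

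Intensities of 19 arrays (medians 145 to 212) were corrected by limma 3.58.1's normexp (offset 50, R 4.3.3), log2-transformed and quantile-normalized, and the brighter 50% of probes by mean signal, 22641, were kept. The platform annotation, with symbols updated for 34807 probes, gave 1 symbol for 34885 probes, several for 18 and none for 10378, and only the first kind was named.

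Tests used limma's lmFit and trended eBayes, with Benjamini-Hochberg adjustment over all kept probes at 0.05. Responses came from a model with a culture block and sensitivity by time terms (7 residual degrees of freedom), late minus early values from culture by period (11). The block was the culture (line by sensitivity), so each response was taken within cultures. The sensitive and resistant cultures of a line were not paired. Each of the 19 arrays correlated best with an array of its own culture. Scripts were checked on simulated data. The number of arrays limits the precision. Besides members, up to 4 passing genes of a list with the largest change in the sensitive cultures at 24 h were named, and the 5 genes with the highest Pearson r to Sqstm1 and Gabarapl1. Members, lists and tests were chosen with earlier results of these data known. Alternatives covered normalization, background, filter, arrays, variance prior, block and probe.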

Additional observations from a re-analysis of the deposited data

How the results depend on the processing

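Over 20 comparisons the 6 members gave 120 results, of which 18 passed. Alternatives gave 3272 further values, in which 58 calls were lost, 11 were gained and 0 called values changed sign, while 117 uncalled values did. No background correction, the deposited normalized table and a stricter filter on dim probes lost 0 calls. With no replicate block 0, 1 and 1 members passed as higher in the sensitive cultures at 8, 16 and 24 h and 0, 0 and 0 in the resistant ones, in place of 2 each. With all 20 arrays, the near-blank one included, 0 members passed in each of these 6 responses, late minus early gave 0 for 589bm sensitive, 1 for 595sp sensitive and 0 for 595sp resistant, and the lower early level in 595sp resistant gave 0. Median scaling gave 0, 1 and 1 in the resistant cultures at 8, 16 and 24 h, and the fits without the 595sp resistant arrays gave 0, 0 and 0. eBayes without an intensity trend gave 1 at 8 h in the resistant cultures, and no filter on dim probes gave 1 for late minus early in 589bm resistant. The causes were not tested. The shares of all genes that passed in these fits are not given here. So these counts cannot be set beside a background and do not tell the members from genes in general. When each array was left out in turn, the count as higher ran from 0 to 2 at 8 h, from 0 to 2 at 16 h and from 1 to 2 at 24 h in the resistant cultures, from 0 to 1 for late minus early in 589bm resistant and from 0 to 2 in 595sp resistant, and the count as lower at 16 h in the sensitive cultures from 0 to 1. For late minus early in 589bm sensitive, Wipi1 also passed as higher by limma without the 8 h array of that culture (0.64, adjusted p = 0.0259). Median scaling moved the median of all kept probes by -0.15 at 16 h and -0.10 at 24 h in the sensitive cultures, and split the calls at 24 h into 297 higher and 1302 lower.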
